A study of Mus musculus with 5 samples.

Results

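The 10 genes described here encode proteins that bind histone H3 methylated on lysine 36. They were chosen by their known function, with earlier results of these data known but by a rule that uses no peak value: Psip1, Brpf1, Phf1, Mtf2, Phf19, Dnmt3a, Dnmt3b, Msh6, Zmynd11 and Morf4l1. All 10 were found among 21887 protein-coding genes of the RefSeq table. The peaks come from wild-type B6 mice, whose thymic medullary epithelial cells with low CD80 (mTEClo, sorted as EpCAM+ UEA-1+ Ly51lo CD80lo) were immunoprecipitated for trimethylated H3K36 (H3K36me3). No treatment, time point or age is given in the labels, and every sample has the same genotype. The ChIP was made in 2 libraries, named series 1 and series 2. A further 3 libraries are inputs without antibody, of which 2 belong to series 1 and 1 to series 2. Each ChIP library gave 1 list of broad peaks called against its own input. The labels say that cells were taken from individual mice but not which mouse gave which library, so any spread from one series to the other may be technical.

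H3K36me3 is placed along the bodies of transcribed genes by SETD2, which travels with elongating RNA polymerase II. The mark acts through proteins that recognise it with a PWWP, chromo or Tudor domain. DNMT3A and DNMT3B methylate DNA, PHF1, MTF2 and PHF19 bring the Polycomb repressive complex PRC2, BRPF1 and MORF4L1 belong to histone acetyltransferase complexes, PSIP1 (LEDGF) tethers other factors to active genes, ZMYND11 restrains elongation, and MSH6 brings mismatch repair. The genes of these readers can themselves carry the mark, and the peak lists give where it was called in them. Transcription was not measured here.

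Series 1 held 7231 peaks with a median width of 483 bp, and series 2 held 10243 with a median width of 222 bp. In series 2, 65.6% of peaks were at most 9 bp wider than the narrowest, against 3.68% in series 1. The files give no read counts, so depth is unknown, and where a gene held no peak the mark was not detected, which is not proof of absence. In a bulk preparation, fewer cells with the mark and less of the mark per cell cannot be told apart. A gene is called marked by a series where it held at least 1 bp of a peak. Among 9 genes listed as mTEClo markers, series 1 marked 2 and series 2 marked 3, against 15.9% and 19.2% of coding genes of their length classes. Krt5, the basal keratin of medullary epithelium, was marked by each, with 5.57% and 9.51% of its length under a peak. Epcam, Krt14, Foxn1, Cd40 and Ccl21a had none in either. Of 4 mature mTEC markers series 1 marked 1 and series 2 marked 2 (16.7% and 19.5% in their length classes), with Ciita in both, and of 6 cortical TEC markers each marked 1 (17.7% and 21.1%), Ly75. Of 7 thymocyte markers series 1 marked 0 and series 2 marked 1 (19.1% and 22.6%), of 4 B cell markers 0 and 1 (15.9% and 20.2%), of 4 myeloid and dendritic markers 1 and 1 (16.3% and 18.0%), and of 3 fibroblast and 3 endothelial markers none in either. These lists are too short to tell the cell types apart.

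Peaks lay in 6 of the 10 reader genes, and each list contributed 4. Series 1 had peaks in Dnmt3a, Zmynd11, Msh6 and Morf4l1, and series 2 in Dnmt3a, Zmynd11, Psip1 and Mtf2. Dnmt3a and Zmynd11 were the 2 genes with a peak in both series. Dnmt3b, Phf1, Phf19 and Brpf1 were the 4 with none. The background over all protein-coding genes, counted by the same overlap of 1 bp or more, was 16.3% for series 1, 19.5% for series 2, 8.42% for both and 27.4% for either. The readers' median length was 27.0 kb against 17.2 kb over all coding genes, and longer genes were hit more often. Coding genes were cut by length into 10 classes of equal number. Averaged over the classes to which the readers belong, the background was 21.3% for series 1, 25% for series 2 and 10.5% for both. The readers' counts of 4, 4 and 2 of 10 lay above these shares, but with 10 genes a single gene moves a share by 10 percentage points, and no test was run.

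**Figure D1:**
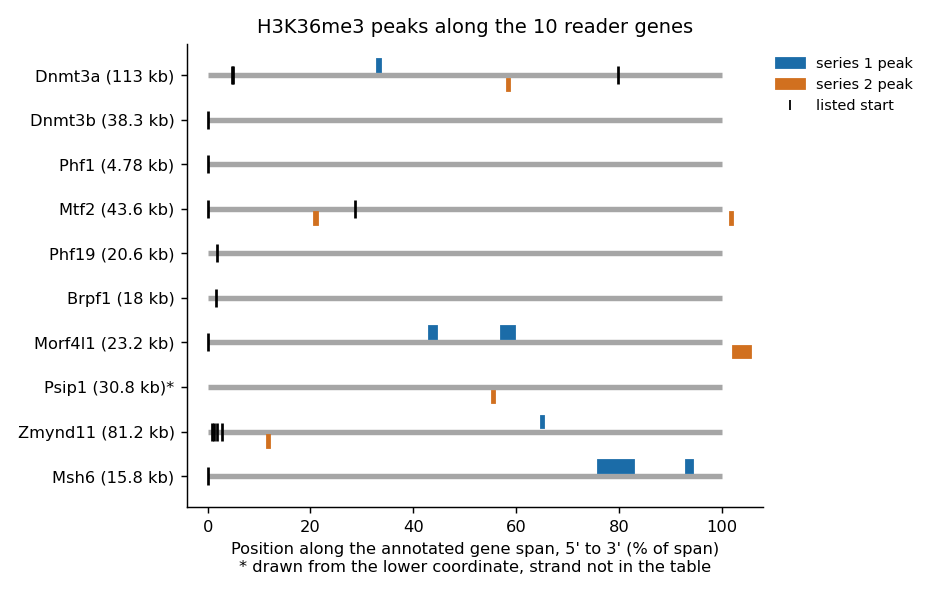
Peaks along the 10 reader genes, drawn from the 5′ end to the 3′ end as a percentage of the span (horizontal axis). Psip1, whose strand is not listed, is drawn from its lower coordinate. Series 1 is above and series 2 below the grey line. Black ticks mark the transcript starts listed in the RefSeq promoter table, and the narrowest peaks are widened to stay visible. The series 1 and series 2 peaks of Dnmt3a and Zmynd11 lie apart, and the series 2 peaks beyond 100% of Mtf2 and Morf4l1 lie outside those genes.

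The sequences upstream of listed transcript starts of Dnmt3a, Mtf2 and Msh6 are printed here, since the peaks of these genes are placed relative to those starts. CpG dinucleotides, the substrate of the DNMT3 enzymes, are in capitals. Each is the 250 bases before a listed start, 5′ to 3′ on the strand of the gene, from RefSeq on GRCm38.p6, the assembly of mm10. The lines are the first and the last listed start of Dnmt3a (chr12:3806730-3806979 and chr12:3891494-3891743), the first and the second of Mtf2 (chr5:108065424-108065673 and chr5:108077915-108078164), and that of Msh6 (chr17:87974800-87975049), all on the plus strand.
Dnmt3a first start: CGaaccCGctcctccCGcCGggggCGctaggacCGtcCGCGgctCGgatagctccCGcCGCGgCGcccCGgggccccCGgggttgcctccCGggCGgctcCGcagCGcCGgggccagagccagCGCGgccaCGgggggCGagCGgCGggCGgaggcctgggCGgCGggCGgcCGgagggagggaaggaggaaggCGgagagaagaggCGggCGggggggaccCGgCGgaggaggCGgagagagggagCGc
Dnmt3a last start: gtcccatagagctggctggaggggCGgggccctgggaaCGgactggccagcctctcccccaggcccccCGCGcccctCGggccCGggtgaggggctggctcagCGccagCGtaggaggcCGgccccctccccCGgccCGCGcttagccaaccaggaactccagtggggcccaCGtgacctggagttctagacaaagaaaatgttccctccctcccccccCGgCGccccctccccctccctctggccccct
Mtf2 first start: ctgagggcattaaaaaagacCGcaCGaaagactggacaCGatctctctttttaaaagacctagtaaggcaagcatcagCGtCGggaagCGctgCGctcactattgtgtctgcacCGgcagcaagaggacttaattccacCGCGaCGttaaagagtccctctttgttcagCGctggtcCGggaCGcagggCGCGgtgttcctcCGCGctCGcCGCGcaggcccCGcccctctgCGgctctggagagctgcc
Mtf2 second start: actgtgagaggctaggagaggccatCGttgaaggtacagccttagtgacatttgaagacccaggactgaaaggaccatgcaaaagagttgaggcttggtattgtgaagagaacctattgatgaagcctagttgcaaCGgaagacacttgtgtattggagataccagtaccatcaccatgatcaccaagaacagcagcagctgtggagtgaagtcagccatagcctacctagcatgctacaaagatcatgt
Msh6 start: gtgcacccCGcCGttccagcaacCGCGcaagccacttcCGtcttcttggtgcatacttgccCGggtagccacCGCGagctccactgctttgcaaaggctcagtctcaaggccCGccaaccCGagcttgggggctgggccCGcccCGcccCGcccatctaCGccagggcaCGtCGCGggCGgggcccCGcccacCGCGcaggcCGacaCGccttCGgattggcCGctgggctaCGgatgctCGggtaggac

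These windows differ widely in CpG content. The motif CG, which reads the same on both strands, occurred 38 times before the first start of Dnmt3a and 15 times before the last. It occurred 23 times before the first start of Mtf2, 2 times before the second, and 27 times before that of Msh6. Over 21263 windows of coding genes the median was 10, and 93.4% held at least 1. The promoter table listed 15 starts for 9 of the 10 genes and has no entry for Psip1. The 15 reader windows, each extended 50 bases past the start, touched no peak in either list. Such contact was rare everywhere, with 0.0517% of coding gene windows touched in series 1 and 0.0658% in series 2.

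Dnmt3a and Dnmt3b encode the de novo DNA methyltransferases, and they differed. Dnmt3a, on chromosome 12 from 3801559 to 3914443 (mm10, 113.0 kb), had 1 peak in each series. The series 1 peak ran from 3838792 to 3839642, was 851 bp wide and had a score of 25. The series 2 peak ran from 3867629 to 3867849, was 221 bp wide and had a score of 24. The score is the authors' whole-number value per peak and is compared only within a list: 64.5% of series 1 peaks and 79.5% of series 2 peaks scored lower than these. The peaks covered 0.754% and 0.196% of the gene, 0.475% ± 0.395 (SD, n = 2). They shared no base and lay 28.0 kb apart, and the covered share in series 1 was the larger of the pair.

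Both Dnmt3a peaks lay between the first start, printed above with 38 CpGs, and the last, printed with 15. The series 1 peak was centred 32.2 kb after the first start and the series 2 peak 60.8 kb after it, which is 24.0 kb before the last start. The annotated span begins before the first listed start, which lies at 4.8% of it. From the 5′ end of the span the peaks were centred at 37.7 and 66.2 kb. Dnmt3a is known to have an internal promoter that makes a shorter protein, and the table does not say which transcript each start belongs to. Both peaks were inside Dnmt3a alone and touched neither of the lncRNA genes annotated within its span. A peak in such a long gene was common: in the class of the longest coding genes the shares were 48.7% for series 1, 61.4% for series 2 and 34.3% for both. That class runs from 109 to 2390 kb, and Dnmt3a lies near its lower limit. In the next shorter class the shares were 33.3%, 40.9% and 19.6%. Dnmt3b, on chromosome 2 from 153649411 to 153687730 (38.3 kb), had no peak. The nearest lay 85.0 kb away in series 1 and 25 kb away in series 2, and in its length class 25.7% and 29.6% of genes were hit.

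Of the Polycomb-like genes, whose proteins bind H3K36me3 with a Tudor domain and recruit PRC2, only Mtf2 had a peak, and only in series 2. Mtf2 lies on chromosome 5 from 108065660 to 108109219 (43.6 kb). Its peak ran from 108074658 to 108075019, was 362 bp wide, covered 0.831% of the gene and had a score of 12. A score of 12 or less was held by 34.4% of series 2 peaks, so this was among the weakest of its list by score, while 81.3% of the list was narrower. The peak was centred 9.16 kb after the first start of Mtf2 and 3.33 kb before the second, the starts printed above with 23 and 2 CpGs. No series 1 peak lay within 85.6 kb of Mtf2.

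Phf1 and Phf19 had no peak in either series. Phf1, on chromosome 17 from 26933127 to 26937908, is the shortest of the 10 at 4.78 kb, and its length class had low shares of marked genes, 2.70% for series 1 and 3.52% for series 2. Its nearest peaks were 167 kb away in series 1 and 405 kb away in series 2. Phf19, on chromosome 2 from 34893752 to 34914353 (20.6 kb), had its nearest peaks 81.2 and 36.1 kb away, and 15.3% and 16.8% of genes of its length class were hit.

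The genes of the acetyltransferase subunits also differed from each other. Morf4l1 encodes MRG15, a chromodomain protein of the NuA4/TIP60 and Sin3 complexes, and lies on chromosome 9 from 90091669 to 90114820 (minus strand, 23.2 kb). It had 2 peaks in series 1, from 90100995 to 90101620 with a score of 37 and from 90104491 to 90104834 with a score of 25, separated by 2.87 kb. Together they covered 4.19% of the gene, a share reached by 2.39% of all coding genes in that list, and 4.87% had as many peaks. They were centred at 58.4% and 43.9% of the way from the 5′ to the 3′ end. No series 2 peak fell inside Morf4l1, but one of 807 bp with a score of 17, from 90090255 to 90091061, lay 608 bp past its 3′ end. When gene spans were extended by 2 kb at each end, Morf4l1 became the third reader marked in both lists. The readers' counts were then 4, 5 and 3 of 10 for series 1, series 2 and both, against 17.1%, 20.9% and 8.81% of coding genes. Those shares are over all coding genes and were not matched for gene length.

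Mtf2 likewise had a series 2 peak shortly past its 3′ end, from 108109795 to 108110010 on chromosome 5, which began 576 bp past the end, was 216 bp wide and had a score of 12. A peak within 2 kb past the 3′ end and outside the gene was thus held by 2 of the 9 readers with a listed strand in series 2 and by 0 in series 1, whether or not the gene also held a peak inside. The background, counted in the same way over 17492 coding genes with a strand, was 1.25% for series 2 and 0.772% for series 1. This measure was chosen after the values were seen.

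Brpf1 encodes the scaffold that carries the PWWP domain of the MOZ/MORF acetyltransferase complexes. It lies on chromosome 6 from 113306863 to 113324862 (18.0 kb) and had no peak, the nearest being 43.0 kb away in series 1 and 141 kb away in series 2. Its length class is that of Morf4l1 and Phf19.

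Msh6, the PWWP subunit of the mismatch recognition complex, was the best covered of the 10 in a single list. It lies on chromosome 17 from 87975050 to 87990892 (15.8 kb) and had 2 peaks in series 1, from 87987063 to 87988181 (1119 bp, score 32) and from 87989781 to 87990003 (223 bp, score 45). Both stood toward the 3′ end, centred 12.6 and 14.8 kb after the start printed above, at 79.4% and 93.7% of the span. They covered 8.47% of the gene, a share that 0.726% of coding genes reached in series 1. The 223 bp peak was within 9 bp of the narrowest of that list, and without it the covered share was 7.06%. In the length class of Msh6, 9.41% of genes had any peak in series 1. Series 2 had none in Msh6, and its nearest peak was 21.5 kb away. The gene therefore shows the largest gap between the series, 8.47% and 0%, and with 1 library per series this difference has no test. Msh6 overlaps Fbxo11 at its 3′ end, but neither peak touched Fbxo11.

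**Figure D2:**
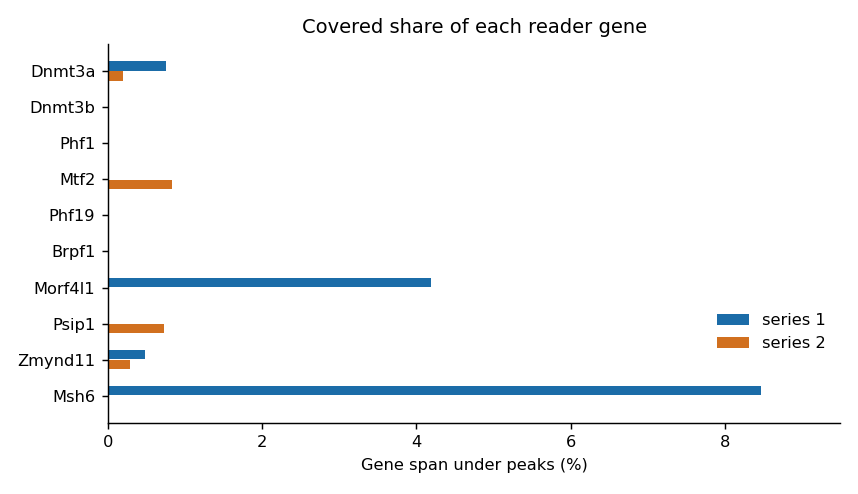
Share of each reader gene's span under peaks, in percent, with 1 bar per series and no error bar because each series is 1 library. Msh6 and Morf4l1 reach 8.47% and 4.19% in series 1 with no series 2 bar, and every other bar is at or below 0.831%.

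Zmynd11 and Psip1 encode readers that act on transcription itself, the first a PWWP and bromodomain protein that restrains elongation, the second the chromatin tether LEDGF. Zmynd11, on chromosome 13 from 9684836 to 9766014 (minus strand, 81.2 kb), had 1 peak in each series. The series 1 peak, from 9712910 to 9713303, was 394 bp wide with a score of 17, and 20.6% of the list scored lower. The series 2 peak, from 9756285 to 9756512, was 228 bp wide with a score of 12, and 1.92% of that list scored lower. They covered 0.485% and 0.281% of the span, 0.383% ± 0.145 (SD, n = 2). The peaks lay 43.0 kb apart, at 65.2% of the span in series 1 and at 11.8% in series 2. The shares of marked genes in its length class were 33.3%, 40.9% and, for both series, 19.6%.

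Psip1, on chromosome 4 from 83455680 to 83486463 (30.8 kb), had 1 peak, in series 2, from 83472673 to 83472894. It was 222 bp wide, covered 0.721% of the gene and had a score of 46, the highest of the series 2 peaks in reader genes, above 96.9% of that list. The whole peak also lies inside Snapc3, a coding gene on the plus strand that ends within Psip1, so the lists cannot assign it to either gene. Snapc3, a subunit of the snRNA-activating protein complex, had 2 peaks in series 1, and none of them was in Psip1.

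**Figure D3:**
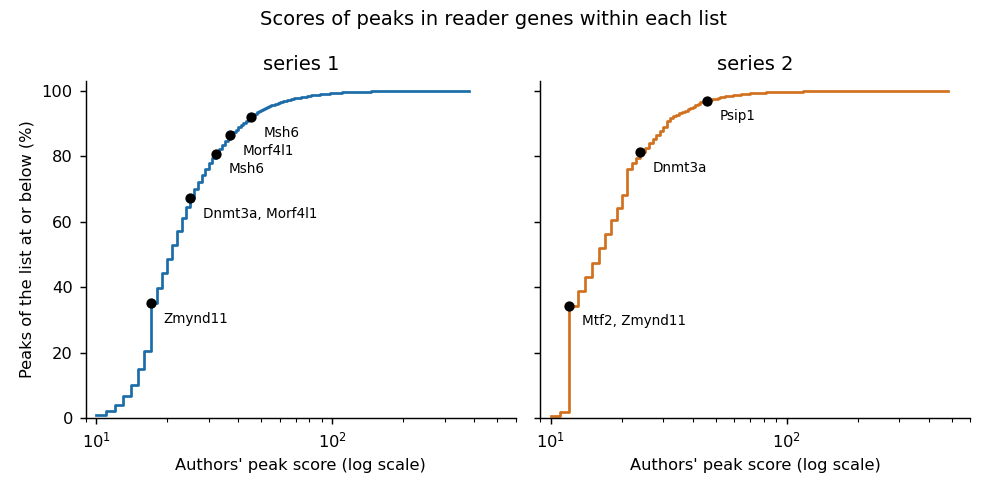
Cumulative share of peaks (vertical axis, percent) by the authors' peak score (horizontal axis, log scale) in series 1 and series 2, with black points at the peaks inside reader genes. The points run from 17 to 45 in series 1 and from 12 to 46 in series 2, and the lists go up to 378 and 483.

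The reader genes with a peak in both series depended on weak or narrow peaks. With a score of at least 20, series 1 marked 3 readers (10.9% of coding genes) and series 2 marked 2 (9.01%), and Dnmt3a was the 1 gene left in both (3.3%), since neither Zmynd11 peak reached that score. With only peaks over 9 bp wider than the narrowest of their list, series 1 marked 4 readers (15.9% of coding genes) and series 2 marked 2 (9.76%). Zmynd11 was the 1 gene left in both (4.95%), since the Dnmt3a peak of series 2 is 221 bp wide. The Zmynd11 peak of series 2, 228 bp wide, passed the limit of 225 bp narrowly. The Psip1 peak of series 2, 222 bp wide, did not pass it despite its high score. At a score of at least 50 no reader had a peak in either series, against 1.48% of coding genes in series 1, 0.763% in series 2 and 0.0868% in both. No reader reached 10% coverage in either list.

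**Figure D4:**
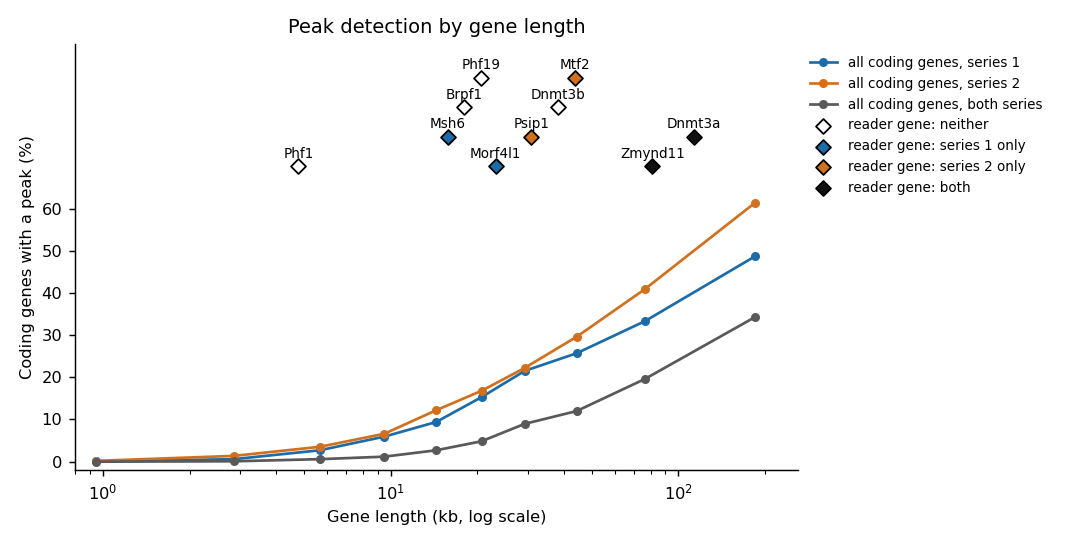
Share of coding genes with a peak (vertical axis, percent) against the median length of each of 10 classes of genes (horizontal axis, kb, log scale), for series 1, series 2 and both, with diamonds above the curves marking the length of each reader gene and the list in which it had a peak; the height of a diamond has no meaning. Dnmt3a and Zmynd11, which had peaks in both series, are the longest of the 10, and Msh6 and Morf4l1 had series 1 peaks at lengths where 9.41% and 15.3% of genes did.

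Within the reader genes, series 1 had 6 peaks over a summed span of 389 kb, or 1.54 per 100 kb, against 0.497 per 100 kb over all coding genes. Series 2 had 4, or 1.03 per 100 kb against 0.619. Peaks covered 0.914% of the readers' summed span in series 1 and 0.265% in series 2, against 0.315% and 0.224% over all coding genes. Msh6 and Morf4l1 held the most covered bases in series 1, 1342 and 970 bp in 2 peaks each, and neither held a series 2 peak. These summed values were not matched for gene length. The median covered share was 0% in each series, for the readers as for all coding genes. Along the gene, peak centres of all coding genes with a listed strand had a median position of 60.7% of the span in series 1 and 58.7% in series 2. In the readers with a strand they ran from 33.4% (Dnmt3a) to 93.7% (Msh6) in series 1 and from 11.8% (Zmynd11) to 58.6% (Dnmt3a) in series 2.

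Of the 2 reader genes hit in both series, Dnmt3a and Zmynd11, neither held a base shared by peaks of the 2 lists. Over the 1843 coding genes hit in both series, 324 (17.6%) held at least 1 shared base. The coverage of Msh6, the reader with the largest mean, was compared with that of genes hit in both series over the 2 libraries. The nearest were Dsp, which encodes desmoplakin, covered over 8.33% in series 1 and 0.467% in series 2, Stat5a with 8.72% and 0.860%, and Nub1 with 8.71% and 0.883%. The distances, in percentage points of covered span, were 0.489, 0.896 and 0.915. Because Msh6 has 0% in series 2, these distances lie close to the series 2 shares of the 3 genes. Genes with a peak in series 1 only were not compared.

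Around the readers stand the enzymes that write and erase the mark and the partners with which the readers work, 63 other genes in 9 lists. In all, series 1 marked 26 of them (41.3%), series 2 also marked 26 (41.3%) and both marked 19 (30.2%), where the length classes of these genes averaged 25.9%, 30.8% and 14.2%. Of 7 writers, series 1 marked 4 and series 2 marked 3 (35.4% and 44.0% in their length classes). All of the latter were marked in both (22.4%). Setd2 itself was among them, with 1.28% and 0.519% of its length covered. Nsd1, which makes mono- and dimethylated H3K36, had 2 and 6 peaks over 1.38% and 3.60%, and its relative Nsd3 had 1 in each. Of 6 erasers, 4 and 3 were hit, with Kdm2a, Kdm4c and Kdm4a in both, at means of 2.58% ± 2.40, 1.58% ± 1.85 and 0.742% ± 0.328 (SD, n = 2).

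Among 17 other readers and PWWP, chromo or Tudor genes, each series marked 6 and both marked 5. In their length classes the shares were 26.5% for series 1, 31.6% for series 2 and 14.6% for both. Nsd1, Nsd2 and Nsd3 also stand in the list of writers, so these lists overlap. By mean coverage Nsd1 led, followed by Brd1, a relative of Brpf1, then Zmynd8, a relative of Zmynd11, and Brpf3, another relative of Brpf1. Brd1 was covered over 1.42% and 2.41%, Zmynd8 over 1.24% and 1.18%, and Brpf3 over 0.773% and 0.958%. Brd1 and Brpf3 had peaks in both series where Brpf1 had none, but they are longer, at 47.2 and 37.7 kb against 18.0 kb. Morf4l2, the X-linked relative of Morf4l1, had none and is shorter, at 10.7 kb against 23.2 kb. Hdgfl2, which resembles Psip1, had none either and is also shorter, at 21.0 kb against 30.8 kb. Longer genes were hit more often, and these pairs were neither matched for length nor tested. Glyr1 had 1 peak in series 2 and Msl3 1 in series 1, named after their values were seen.

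The lists of partners hold 3 to 12 genes each, and differences between them were not tested. Kdm5a, Kdm5b, Ep400 and Sin3a were the 4 of 12 partners of Morf4l1 hit in both series (11.1% in their length classes). Kdm5a, a histone demethylase, had 7 and 4 peaks over 7.09% and 2.45% of its span. Of 10 PRC2 genes, series 1 marked 4 and series 2 marked 3, with Ezh1 and Jarid2 in both (26.2%, 30.8% and 14.4% for series 1, series 2 and both in their length classes). Of 5 partners of Brpf1, series 1 marked 2, series 2 marked 3 and both marked 2 (24.9%, 29.6% and 13.8% in their length classes). The 2 in both were Kat6a and Kat6b, the acetyltransferases that BRPF1 activates, Kat6a over 2.72% and 0.958%. Of 3 partners of Psip1, 1 was marked, in both series (19.2%, 22.2% and 9.71% in their length classes). It was Kmt2a, which PSIP1 tethers together with menin, with 2 peaks in each series over 4.39% and 1.39%. Of 3 mismatch repair genes, series 1 marked 1 and series 2 marked 2, and Pms2 was the one in both (34.5%, 41.5% and 20.9% in their length classes). Dnmt1, Dnmt3l and Uhrf1, listed as partners of the DNMT3 enzymes, had no peak in either series, where 18.8% and 21.1% of genes of their length classes did.

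**Figure D5:**
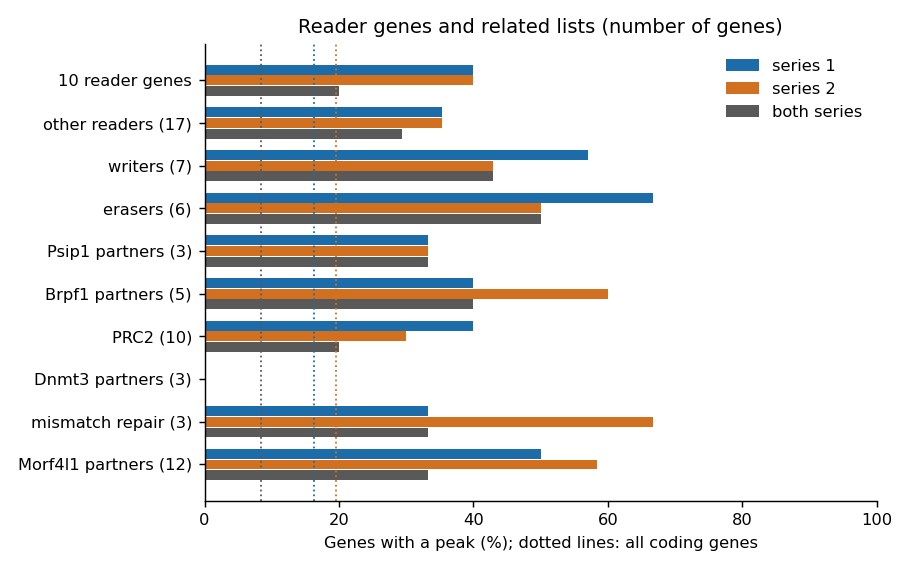
Share of genes with a peak (horizontal axis, percent) in series 1, series 2 and both, for the 10 reader genes and the lists of related genes with their numbers in brackets; dotted lines give the shares over all coding genes in the same colours. The 10 reader genes stand at 40% in each series and 20% in both, beside dotted lines at 16.3%, 19.5% and 8.42%, and the lists of 3 to 17 genes allow only coarse shares.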

How the data were processed

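The submitters' processing notes name Bowtie2, SAMtools, MACS2 and the build mm10; their settings and versions were not given in the sources used here. The peak names, as deposited by the authors, tell of filtering and sorting before calling. Broad peaks were called per ChIP library, series 1 against 2 inputs together and series 2 against 1, as the same names show. The authors deposited a whole-number score per peak, at least 10 in each list; its meaning is not stated, and it was used only within a list. Peaks were joined, by at least 1 bp, to the spans of all 21887 coding genes of chromosomes 1 to 19, X and Y in a RefSeq table for GRCm38.p6. The table gives no exons, so peaks could not be placed in exons, introns or UTRs. Strand and starts came from the RefSeq promoter table, which gave 1 strand for 17492 of these genes. Genes were cut into 10 length classes. Reads of the inputs were not used here. The members, the lists of related genes and the alternatives were chosen with earlier results of these data known. Genes to be named were every reader, up to 4 genes per related list with a peak in both series (by mean coverage), Setd2, and coding neighbours sharing a peak. Also named were the 3 genes, among those hit in both series, nearest in coverage to the best covered reader. Morf4l2, Hdgfl2, Dnmt1, Dnmt3l, Uhrf1, Glyr1, Msl3, Fbxo11 and cell type markers were named outside this rule. The mismatch repair list was analysed without 2 of its genes, which are not reported here. No test between series was possible with 1 library each. The overlap code was tested on simulated data. Python 3.11.15, numpy 2.4.6, pandas 2.3.3 and matplotlib 3.10.9 were used.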

Additional observations from a re-analysis of the deposited data

How the results depend on the processing

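The counts of readers with a peak (4 in series 1, 4 in series 2, 2 in both, 6 in either) were the same with the peak midpoint or 50% of the peak required inside the gene. A score of at least 20 left 2 readers in series 2 and 1 in both, and peaks over 9 bp wider than the narrowest likewise left 2 in series 2 and 1 in both. A score of at least 50, or 10% of the span under peaks, left 0 readers in series 1, 0 in series 2, 0 in both and 0 in either, since fewer peaks or genes qualify. Extending the span by 2 kb moved the median covered share in series 2 from 0 to 0.0945%. With either series left out, the count for both and for either is by construction that of the remaining list, 4 each time, and is no check of them. Counting only peaks in a single coding gene removed Psip1, which left 3 readers in series 2. No paired analysis was possible because each series has 1 ChIP library, its inputs have no peak list, and no test was run. Depth is unknown, so a gene without a peak cannot be called unmarked.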
